A study of Homo sapiens with 24 samples.

Results

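Expression of 10 genes of the ATF4 amino acid stress response was examined by RNA-Seq in 24 libraries labelled as 3 triple-negative breast cancer (TNBC) cell lines, of which the 3 libraries labelled KIF20A OE went against that label by their markers. The genes were ATF4, DDIT3, ASNS, TRIB3, CHAC1, SESN2, SLC7A11, PHGDH, PSAT1 and PSPH. They were taken by symbol from the 66659 gene symbols listed across the 4 deposited tables. All 10 were analysed in Hs578T, in HCC70 and in the KIF20A depletion experiment, and 9 in the overexpression experiment, where ASNS was not analysed here. The study asked which genes set breast cancer stem cells (BCSCs) apart from other tumor cells and what the mitotic kinesin KIF20A does in them. BCSCs of wild-type Hs578T and HCC70 were sorted as CD24-CD44+ and ALDH+ cells, and non-BCSCs as cells outside both gates, so that the groups differ in the markers used to sort them. MDA-MB-231 cells infected with lentivirus carried either a control sgRNA (sgCtrl) or KIF20A sgRNA number 1 (KIF20A sg1), and in another experiment either an empty vector (EV) or a KIF20A overexpression construct (KIF20A OE). Each of the 8 groups held 3 libraries, named biological triplicates by the labels, and in the sorted experiments the cell line is also the batch.

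ATF4 is a bZIP transcription factor of the integrated stress response. When amino acids are scarce, the kinase GCN2 (EIF2AK4) phosphorylates eIF2α, general translation slows, and translation of ATF4 mRNA rises, so that ATF4 protein can increase with little change in its mRNA. ATF4 then binds C/EBP-ATF response elements (CAREs) and activates genes for amino acid synthesis, uptake and tRNA charging, and the serine synthesis enzymes among them are often raised in TNBC.

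The members are read out here as mRNA, and the DNA element through which ATF4 acts can be shown for several of them. The CARE core TGATGNAA was searched on both strands in the 1000 bases before the start of the GENCODE 44 canonical transcript, in hg38. It was found in 6 of the 10 members and in 11.3% of 20046 protein-coding genes searched the same way. A match is a description of these letters and not a binding site shown in these cells. The windows below are shown because they let the members with a core be compared at the level of sequence. They run 5′ to 3′ on the strand of the gene, and capitals mark the core or, where the core lies on the opposite strand, its reverse complement.
ASNS, chr7:97872458-97872487, minus strand: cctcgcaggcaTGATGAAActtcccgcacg
ASNS, chr7:97873276-97873305, minus strand: tatttcggtgcTGATGTAAttagtaaaata
DDIT3, chr12:57520802-57520831, minus strand: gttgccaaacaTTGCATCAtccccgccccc
CHAC1, chr15:40953251-40953280, plus strand: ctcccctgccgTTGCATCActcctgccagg
SESN2, chr1:28259211-28259240, plus strand: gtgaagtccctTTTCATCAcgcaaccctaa
SLC7A11, chr4:138242417-138242445, minus strand: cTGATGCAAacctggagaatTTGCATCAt
PHGDH, chr1:119710969-119710998, plus strand: cataattctcaTTGCATCActaatttgaaa

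The cores of DDIT3, CHAC1, PHGDH and SLC7A11 share the letters TGATGCAA, and SLC7A11 holds this core on both strands within 1 window. The ASNS cores began 68 and 886 bases before the transcript start, those of SLC7A11 95 and 76 bases, that of CHAC1 209, that of SESN2 296, that of DDIT3 306 and that of PHGDH 954 bases. By the annotation, the nearer ASNS window and the CHAC1 window lay in exons of longer transcripts of the same genes, the DDIT3 and PHGDH windows in introns of the same genes, the farther ASNS window in an intron of the lncRNA ENSG00000284707, and the SESN2 and SLC7A11 windows between genes. A related element with C in place of T, TGACGNAA, which does not overlap the core, was found in CHAC1 and in 4.07% of all genes. Neither element was found in this window of ATF4, TRIB3, PSAT1 or PSPH, which says nothing of elements elsewhere.

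Libraries of the sorted Hs578T cells held 28189500 to 33715701 recovered reads and those of the sorted HCC70 cells 24681218 to 33559417. With sgCtrl or KIF20A sg1 the depth was 41424338 to 51018667 reads, and with EV or KIF20A OE it was 15971297 to 22182293. Values of the sorted cells are TPM, reads divided by length and scaled to depth, which allows genes to be set side by side. Values of MDA-MB-231 are CPM, reads scaled to depth alone, so that there a gene is compared only with itself. Differences were tested by limma on log2(value + 1), and an adjusted p under 0.05 over all genes tested is called a rise or fall. KIF20A itself rose in BCSCs of Hs578T (from 217 to 297 TPM) and HCC70 (from 71.4 to 125 TPM). In bulk libraries, fewer cells of a type and less RNA per cell cannot be told apart. All 8 mesenchymal markers were detected in Hs578T and all 7 basal epithelial markers in HCC70, but detection alone did not separate the lines. In HCC70 non-BCSCs 6 of the 8 mesenchymal markers were at least 1 TPM in every library, and some had higher means than in Hs578T. The sums fitted the line labels, with a mesenchymal sum of 939 to 1006 TPM in HCC70 non-BCSCs. The basal epithelial sum was 322 to 351 TPM in Hs578T non-BCSCs and 5987 to 6583 TPM in HCC70 non-BCSCs. In Hs578T the mesenchymal sum was 5687 to 5834 TPM in non-BCSCs and 6002 to 6116 TPM in BCSCs, and 1 of 8 genes of that list passed, AXL (0.22, adjusted p = 0.033), while CAV1 was lower in all 3 BCSC libraries without passing (-0.18, adjusted p = 0.055). Of 3 basal epithelial genes tested there, the keratin KRT18 rose (0.28, adjusted p = 0.03), and KRT8 was lower in all 3 BCSC libraries without passing (-0.20, adjusted p = 0.17). In HCC70 the leukocyte sum was 143 to 164 TPM in non-BCSCs and 149 to 156 TPM in BCSCs, and of its 2 genes tested CD68, a lysosomal protein that many cell types make, rose (0.48, adjusted p = 0.043), while CD14 was lower in all 3 BCSC libraries without passing (-0.30, adjusted p = 0.095). The part of these markers in the member differences was not tested.

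By its mean, ATF4 was the most abundant member in all 4 sorted groups, and SESN2 or SLC7A11 the least, although in HCC70 BCSCs the ranges of ATF4 and PHGDH overlapped. In Hs578T non-BCSCs, ATF4 lay at 345 ± 8.85 TPM (SD, n = 3), followed by SLC7A11 at 172 ± 10.4 and PSAT1 at 162 ± 9.91, whose ranges overlapped. Below them came PHGDH at 123 ± 10.6, ASNS at 70.7 ± 1.80, PSPH at 39.6 ± 1.31 and DDIT3 at 25.7 ± 0.161. CHAC1 at 18.1 ± 1.27 and TRIB3 at 17.3 ± 0.357 overlapped, and SESN2 was lowest at 13.8 ± 0.826 TPM. HCC70 non-BCSCs had a different order, with ATF4 at 412 ± 18.4 TPM, PSAT1 at 387 ± 7.85 and PHGDH at 375 ± 41.2, the latter pair overlapping, and ASNS next at 220.0 ± 5.65. TRIB3 (73.7 ± 3.24), PSPH (53.7 ± 2.57), DDIT3 (49.8 ± 3.42), SESN2 (30.8 ± 0.289) and CHAC1 (25.6 ± 3.71) followed, and SLC7A11 was last at 21.9 ± 1.79 TPM. PSPH overlapped DDIT3 there, and CHAC1 overlapped SLC7A11. SLC7A11, the cystine-glutamate antiporter that feeds glutathione synthesis, thus ranked second in Hs578T non-BCSCs and last in HCC70 non-BCSCs. In BCSCs it lay below PSAT1 in Hs578T, at 189 against 196 TPM, and was again last in HCC70. Levels of the lines come from separately normalized tables and were not tested against each other.

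**Figure D1:**
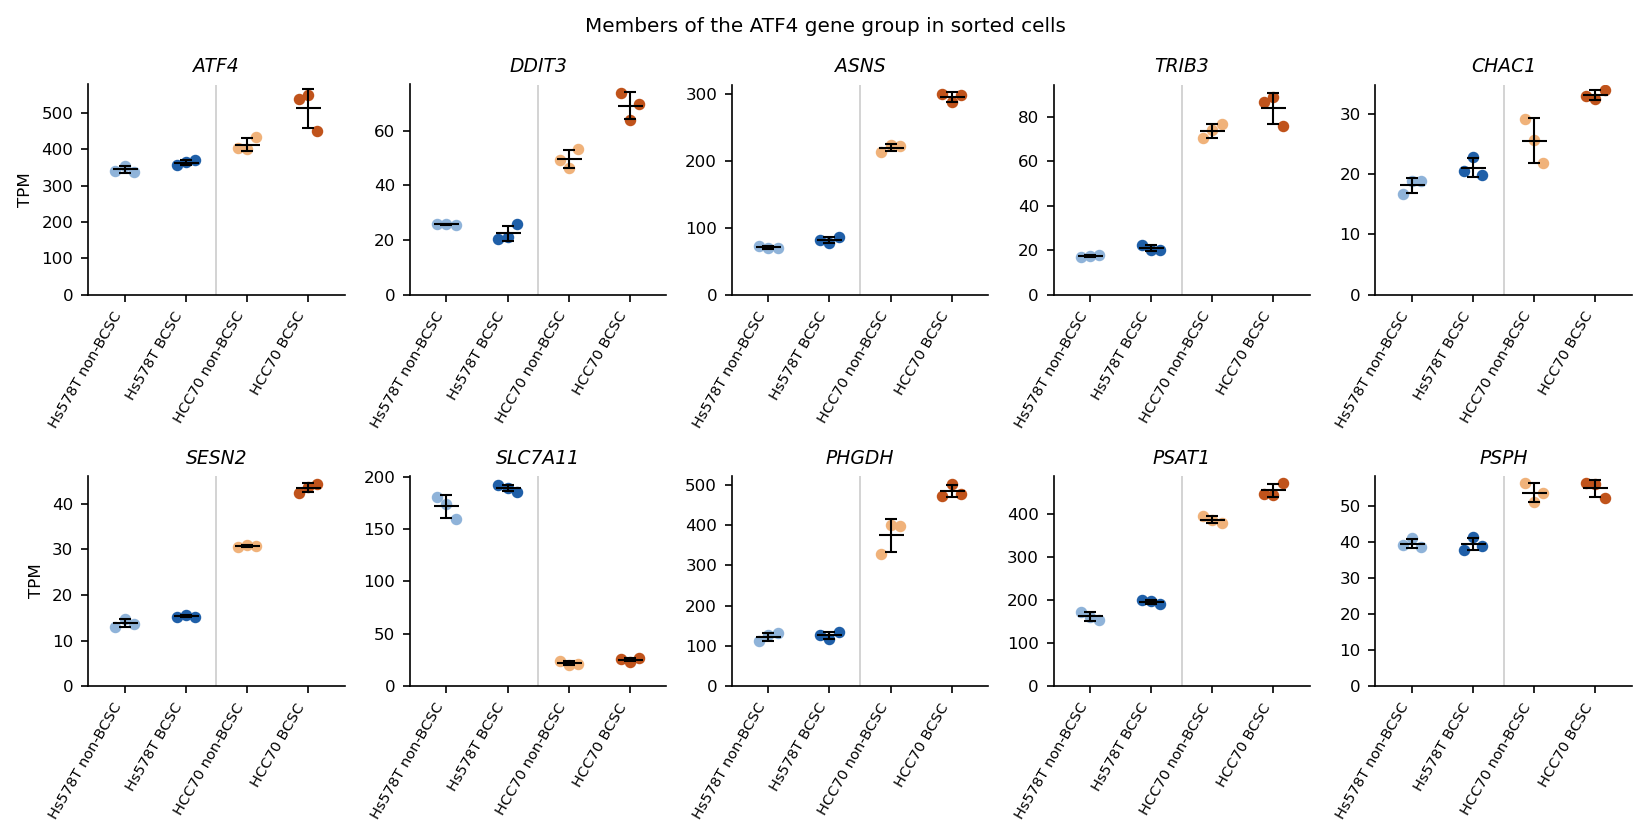
TPM of each member (vertical axis, from 0) in the 4 sorted groups (horizontal axis), with 1 point per library and black bars for mean ± SD (n = 3). All 3 BCSC libraries lie above all 3 non-BCSC libraries for 7 members in Hs578T and for 7 in HCC70, while the SLC7A11 points sit between 160.2 and 192 TPM in Hs578T and between 20.3 and 27 TPM in HCC70.

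In Hs578T, 2 of the 10 members rose in BCSCs, PSAT1 and TRIB3, and 0 fell. Among all 13324 genes tested, 2.90% rose and 4.26% fell. The members had a median difference of 0.14 on log2(TPM + 1), against -0.01 over all genes tested. Every BCSC library lay above every non-BCSC library for 7 of the 10 members (ATF4, ASNS, TRIB3, CHAC1, SESN2, SLC7A11 and PSAT1), an arrangement found for 12.0% of all genes. The exact two-sided permutation test of 3 against 3 libraries cannot give a p below 0.1. With the median of ratios as the scaling, 620 genes were higher and 573 lower in place of 386 and 567, and ASNS passed beside PSAT1 and TRIB3.

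PSAT1, the aminotransferase of serine synthesis, was at 173, 161 and 153 TPM in Hs578T non-BCSCs and at 201, 197 and 192 TPM in BCSCs. All BCSC libraries were above all non-BCSC libraries, by 1.21-fold on the means (log2 difference 0.27, SE 0.05, adjusted p = 0.022). TRIB3, a pseudokinase that ATF4 induces and that restrains ATF4 in return, was at 17.0, 17.3 and 17.7 TPM in non-BCSCs and at 22.3, 20.3 and 20.1 TPM in BCSCs. The groups did not overlap, and the mean was 1.21-fold higher (0.26, SE 0.05, adjusted p = 0.031). Without non-BCSC replicate 2, and likewise without BCSC replicate 1, neither gene passed (PSAT1 adjusted p = 0.11 in both cases, within a range of 2.2e-07 to 0.11 over its 13 alternatives). TRIB3 also missed the threshold without non-BCSC replicate 1 or 3, and in 6 of 13 alternatives in all, over which its adjusted p ran from 0.019 to 0.13.

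ASNS, which makes asparagine from aspartate and glutamine, was at 72.7, 70.3 and 69.1 TPM in Hs578T non-BCSCs and at 81.9, 77.6 and 85.9 TPM in BCSCs. Its groups were apart, but the difference missed the threshold (0.21, SE 0.05, adjusted p = 0.05, which lies just above the threshold before rounding). ATF4 itself differed by 0.08 (SE 0.04, adjusted p = 0.32), from 341, 355 and 338 TPM to 356, 364 and 369.8 TPM. The highest non-BCSC library and the lowest BCSC library lay next to each other. CHAC1, which degrades glutathione, differed by 0.21 (SE 0.07, adjusted p = 0.14), and the stress sensor SESN2, an inhibitor of mTORC1, by 0.15 (SE 0.06, adjusted p = 0.16). For SLC7A11 the difference was 0.14 (SE 0.05, adjusted p = 0.16).

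DDIT3 (CHOP), a pro-apoptotic bZIP factor downstream of ATF4, had a negative difference in Hs578T. Its exons overlap MARS1 and MBD6 on the opposite strand by 27.2% and 4.44% of their bases, and the strand setting of the counting is not given in the sources used here. It was at 25.7, 25.9 and 25.5 TPM in non-BCSCs and at 20.5, 21.1 and 25.7 TPM in BCSCs. BCSC replicate 3 lay within the non-BCSC range and the other two libraries below it, and the difference of -0.19 (SE 0.08) did not pass (adjusted p = 0.21). Without that library DDIT3 fell by 0.29 (adjusted p = 0.025, within a range of 0.025 to 0.49 over 13 alternatives). PHGDH, which opens the serine pathway, and PSPH, which closes it, differed by 0.04 (SE 0.08, adjusted p = 0.83) and by 0.00 (SE 0.05, adjusted p = 0.97), and both overlapped between the groups. Of the serine enzymes, therefore, PSAT1 passed the test, and PHGDH and PSPH did not.

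Among the other genes of the pathway, 4 of 48 tested rose in Hs578T BCSCs and 3 fell, against 2.90% and 4.26% of all genes. Their median difference was 0.04, against -0.01 over all genes. These 7 calls became 2 without non-BCSC replicate 2, 3 without non-BCSC replicate 1 and 3 without BCSC replicate 1. Transporters gave 3 of the 4 that rose. They were SLC7A5 (0.38, SE 0.06, adjusted p = 0.012) and SLC3A2 (0.23, SE 0.04, adjusted p = 0.016), the light and heavy chain of the large neutral amino acid transporter, and the glycine transporter SLC6A9 (0.34, SE 0.06, adjusted p = 0.013). All 7 transporters had positive differences, with a median of 0.17. The secreted glycoprotein STC2 also rose (0.36, SE 0.04, adjusted p = 0.0027). The mTORC1 inhibitor DDIT4 fell (-0.42, SE 0.05, adjusted p = 0.0048), as did the tryptophanyl-tRNA synthetase WARS1 (-0.26, SE 0.06, adjusted p = 0.031) and the eIF2α phosphatase subunit PPP1R15A (-0.21, SE 0.04, adjusted p = 0.028). None of 16 endoplasmic reticulum chaperone genes passed, with a median of -0.05 and 4 at an unadjusted p under 0.05. Of 8 NRF2 target genes, NQO1 fell (-0.32, SE 0.05, adjusted p = 0.013).

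In HCC70, 3 of the 10 members rose in BCSCs, SESN2, DDIT3 and ASNS, and 0 fell. All 10 had positive differences, with a median of 0.34 on log2(TPM + 1), against 0.02 over all 13218 genes tested. Of all genes, 2.28% rose and 0.552% fell. The BCSC libraries lay above all non-BCSC libraries for 7 of the 10 members (ATF4, DDIT3, ASNS, CHAC1, SESN2, PHGDH and PSAT1), as for 20.9% of all genes. Counts of calls depended on the tool here, with edgeR on reads recovered from the TPM giving 441 genes higher and 274 lower in place of 301 and 73, and 5 members higher. DESeq2 on the same reads gave 635 genes higher and 532 lower, and 7 members higher. The share of higher calls was thus 80.5% by limma, 61.7% by edgeR and 54.4% by DESeq2.

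SESN2 showed the largest log2 difference of the members in HCC70. It was at 30.5, 31.0 and 30.8 TPM in non-BCSCs and at 42.4, 43.7 and 44.4 TPM in BCSCs. The non-BCSC libraries lay close together and all BCSC libraries were well above them, 1.41-fold on the means (0.49, SE 0.05, adjusted p = 0.0059), and SESN2 passed in all 13 alternatives. DDIT3 was at 49.4, 46.5 and 53.3 TPM in non-BCSCs and at 73.9, 63.9 and 69.8 TPM in BCSCs. Here, unlike in Hs578T, all BCSC libraries were the higher ones, by 1.39-fold (0.47, SE 0.07, adjusted p = 0.025). DDIT3 lost its call without non-BCSC replicate 2, without BCSC replicate 1 or without BCSC replicate 3, with adjusted p = 0.071, 0.11 and 0.091, and with no filter on low values (0.053), in a range of 5.2e-05 to 0.11 over 13 alternatives.

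ASNS was at 214, 224 and 222 TPM in HCC70 non-BCSCs and at 301, 288 and 299 TPM in BCSCs. The groups stood clearly apart, and ASNS was 1.35-fold higher in BCSCs (0.43, SE 0.05, adjusted p = 0.0086). Of 13 alternatives, it missed the threshold in the one without BCSC replicate 1 (adjusted p = 0.07, range 5.2e-09 to 0.07), and without that library SESN2 was the 1 member still called. ATF4 was at 403, 401 and 434 TPM in non-BCSCs and at 538, 549 and 450.4 TPM in BCSCs. BCSC replicate 3 lay close to the non-BCSC libraries, and the 1.24-fold higher mean did not pass (0.31, SE 0.09, adjusted p = 0.088). For CHAC1 the BCSC libraries were likewise all higher, without passing (1.30-fold, 0.37, SE 0.10, adjusted p = 0.082).

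Of the serine synthesis enzymes, PHGDH was at 328, 401 and 397 TPM in HCC70 non-BCSCs and at 473, 503 and 479 TPM in BCSCs. Every BCSC library was the higher one, and the 1.29-fold difference lay just outside the threshold (0.38, SE 0.09, adjusted p = 0.06). PSAT1 differed by 1.18-fold (0.23, SE 0.05, adjusted p = 0.062), with 387 ± 7.85 and 455 ± 15.4 TPM. PSPH was at 53.7 ± 2.57 and 54.9 ± 2.41 TPM, with overlapping groups (0.03, SE 0.06, adjusted p = 0.79). TRIB3 (0.18, SE 0.07, adjusted p = 0.18) and SLC7A11 (0.20, SE 0.08, adjusted p = 0.18) overlapped as well, TRIB3 through BCSC replicate 3 at 76.0 TPM and non-BCSC replicate 3 at 76.7 TPM.

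Of the other genes of the pathway, 8 of 48 tested rose in HCC70 BCSCs and 0 fell, against 2.28% and 0.552% of all genes. Their median difference was 0.21, against 0.02 over all genes. DDIT4 rose (0.42, SE 0.08, adjusted p = 0.043), as did the chromatin-associated stress factor NUPR1 (0.40, SE 0.06, adjusted p = 0.024) and SLC6A9 (0.39, SE 0.07, adjusted p = 0.028). The differences were positive for 12 of 12 aminoacyl-tRNA synthetases, which charge tRNAs with amino acids, and 2 of these passed. All 4 mitochondrial and one-carbon enzymes had positive differences, with a median of 0.31 and 0 calls, 4 of them at an unadjusted p under 0.05. Among 16 endoplasmic reticulum chaperone genes 1 rose, HYOU1 (0.40, SE 0.07, adjusted p = 0.036), and among 8 NRF2 targets none passed, with 0 at an unadjusted p under 0.05. The count of 8 in the wider pathway was not stable, falling to 0 without non-BCSC replicate 2 and without any 1 of the BCSC replicates, and to 1 without non-BCSC replicate 3.

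Whether the BCSC difference was unequal between the lines was tested as the interaction of sorted fraction and cell line in the 12 sorted libraries. It passed for 2 of the 10 members, DDIT3 and SESN2, both larger in HCC70, as for 6.29% of 13705 genes tested. With the median of ratios the split over all genes went from 862 larger in HCC70 and 248 larger in Hs578T to 587 and 489, and both members still passed. For DDIT3 the log2 difference was -0.19 in Hs578T and 0.47 in HCC70, so that they were 0.66 apart (SE 0.12, adjusted p = 0.0085). For SESN2 the differences were 0.15 and 0.49, which were 0.34 apart (SE 0.07, adjusted p = 0.014). Both passed in all 17 alternatives, which did not include the count tests. ASNS (0.22 apart, SE 0.06, adjusted p = 0.057), PHGDH (0.34, SE 0.12, adjusted p = 0.11) and ATF4 (0.23, SE 0.10, adjusted p = 0.15) had larger differences in HCC70 that did not pass. For PSAT1 and TRIB3, which rose in Hs578T, the differences between the lines were -0.04 (SE 0.07) and -0.07 (SE 0.09), with adjusted p = 0.74 and 0.64. In the wider pathway 9 of 48 genes tested passed, all larger in HCC70, among them DDIT4 (0.84, SE 0.10, adjusted p = 0.0011), PPP1R15A (0.58, SE 0.12, adjusted p = 0.015), the cystathionine gamma-lyase gene CTH (0.51, SE 0.07, adjusted p = 0.0024) and the bZIP factor ATF3 (0.50, SE 0.13, adjusted p = 0.039).

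**Figure D2:**
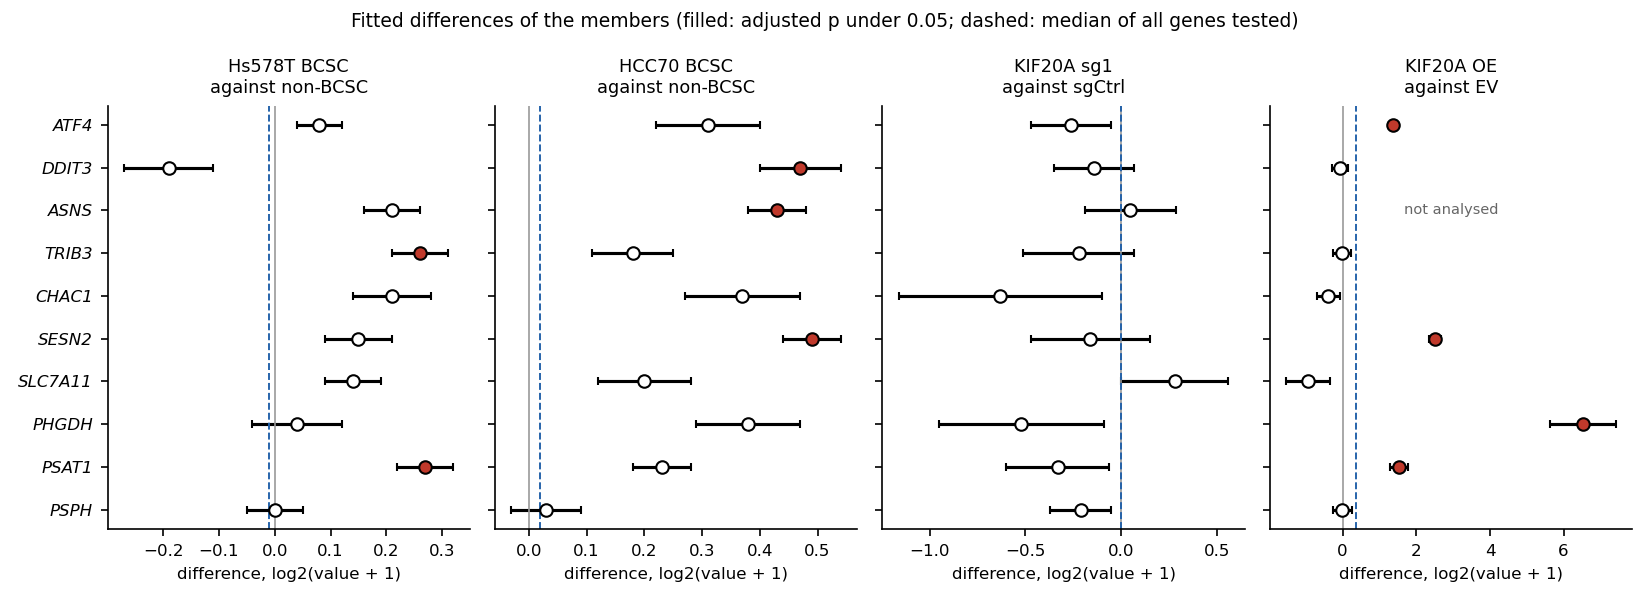
Fitted difference of each member on log2(value + 1) (horizontal axes, a separate scale per panel) with its standard error, in the 4 comparisons. Filled points passed an adjusted p of 0.05, and the dashed line is the median of all genes tested, which is 0.37 in the overexpression experiment and between -0.01 and 0.02 in the others.

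KIF20A in the depletion experiment was at 153, 173 and 156 CPM with sgCtrl and at 122, 145 and 91.1 CPM with KIF20A sg1. The sg1 libraries were all lower, by a mean of 161 against 119 CPM, without passing the test (-0.45, SE 0.16, adjusted p = 0.69). The labels call this a knockdown, and an sgRNA can leave the mRNA in place, which was not tested here. The study blotted KIF20A protein in MDA-MB-231 cells infected with KIF20A sgRNAs and describes them as depleted. No member differed between the groups by limma, with 0 of 10 called and 0 at an unadjusted p under 0.05. Over all 12852 genes the share called was 0%, while 899 genes had an unadjusted p under 0.05. DESeq2 on recovered reads called 11 genes and edgeR 0, and neither called a member. Every member overlapped between the groups. Of all genes, 5.73% had all 3 KIF20A sg1 libraries above all 3 sgCtrl libraries. The share with all 3 below was not computed, so the overlap of the members lacks a background in that direction. The differences of the members ran from -0.63 for CHAC1 to 0.28 for SLC7A11, with a median of -0.21, and 8 of 10 were negative.

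KIF20A sg1 replicate 2 held the lowest value of its group for all 10 members, while it held the lowest value for 33.1% of all genes tested. CHAC1 was at 12.3, 1.47 and 10.8 CPM with sg1 and at 11.5, 15.0 and 6.30 CPM with sgCtrl. The sg1 replicate 2 library was thus far below the 5 others, which overlapped. PHGDH was at 4.18, 1.05 and 9.21 CPM with sg1 and at 5.22, 6.33 and 6.02 CPM with sgCtrl. ATF4 was at 230.3, 131 and 218 CPM with sg1 and at 206, 272 and 202 CPM with sgCtrl. For CHAC1 and ATF4 the other two sg1 libraries were within the control range, for PHGDH they lay on either side of it, and sg1 replicate 2 was the lowest of all 6 in each case.

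SESN2 (12.6, 5.28 and 12.0 CPM), TRIB3 (47.7, 22.0 and 57.6 CPM) and DDIT3 (5.43, 3.77 and 6.34 CPM) were likewise lowest in replicate 2 among the KIF20A sg1 libraries. SLC7A11 was at 119.8, 52.5 and 135 CPM with sg1 and at 80.7, 74.4 and 79.2 CPM with sgCtrl, so that replicate 2 was below and the other two above every control. PSAT1 (178, 107 and 239 CPM, against 149, 229.8 and 268 CPM) and PSPH (52.5, 40.1 and 49.7 CPM, against 45.2, 58.3 and 61.6 CPM) were also lowest in replicate 2. Without replicate 2 of KIF20A sg1 the median difference of the members moved from -0.21 to 0.12, and 7 of 10 differences were positive in place of 2, still with 0 members called. That library held 51018667 reads, the most of the 24, and its KIF20A value was the highest of the sg1 libraries. The part of depth or of the KIF20A level in the low member values was not tested. Outside the members, KIF20A sg1 replicate 2 held the lowest value of its group for 29 of 44 genes of the wider pathway, against 33.1% of all genes. These were all 12 aminoacyl-tRNA synthetases, 3 of 3 one-carbon enzymes and 4 of 5 bZIP partners, but 4 of 8 other ATF4 targets, 4 of 9 upstream genes and 2 of 7 transporters. Outside that pathway it was lowest for 4 of 16 endoplasmic reticulum chaperone genes and 1 of 8 NRF2 targets. The leukocyte list, of which CD14 was the 1 gene with a testable level, summed to 8.56 to 10.9 CPM with sgCtrl and 5.63 to 7.20 CPM with sg1, while PTPRC and CD3E were at or near 0. The part of these in the pattern was not tested.

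ASNS was near 1 CPM in the depletion experiment, from 0.766 to 2.36 CPM and from 38 to 99 reads. By GENCODE 44, 49.3% of its exon bases (2415 of 4896) are shared on the same strand with the lncRNA gene ENSG00000284707, which was at 1.62 to 2.50 CPM. Both together came to 2.89 to 3.65 CPM with sgCtrl and 3.25 to 4.87 CPM with KIF20A sg1. Whether reads in the shared exons were counted for neither gene was not tested, so the ASNS level in MDA-MB-231 is uncertain.

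**Figure D3:**
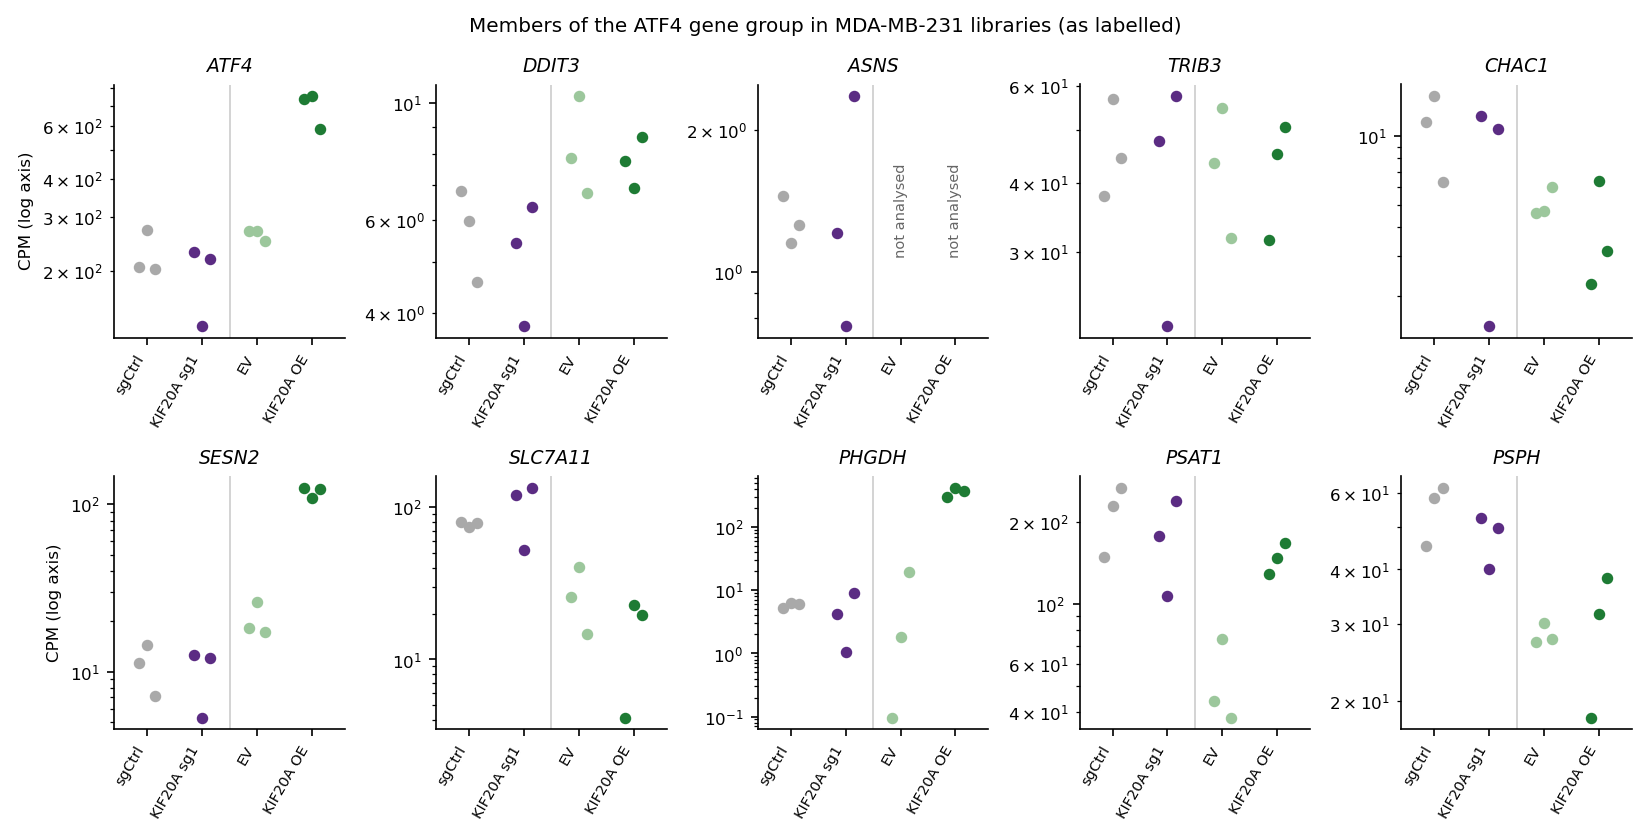
CPM of each member (vertical axis, logarithmic) in the 6 libraries of the depletion experiment, left of the grey line, and the 6 of the overexpression experiment, right of it, with 1 point per library. KIF20A sg1 replicate 2 is the lowest sg1 point in all 10 panels, and ATF4, SESN2, PHGDH and PSAT1 show the KIF20A OE points above the EV points.

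No gene of the wider pathway passed in the depletion experiment by limma, with 0 of 44 tested and 4 at an unadjusted p under 0.05. Over this and the chaperone and NRF2 lists, the smallest p values belonged to HYOU1 (-0.42, SE 0.14, adjusted p = 0.69), the proline synthesis enzyme PYCR1 (-0.54, SE 0.18, adjusted p = 0.69) and SLC3A2 (-0.34, SE 0.13, adjusted p = 0.69). For PYCR1 the sgCtrl libraries were at 89.0, 115 and 76.2 CPM and the sg1 libraries at 61.6, 52.0 and 77.7 CPM. Without sgCtrl replicate 3, 144 genes were called over the whole table and still 0 members or genes of the wider pathway. Standard errors of the members ran from 0.16 for PSPH to 0.53 for CHAC1, larger than any in the sorted cells.

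**Figure D4:**
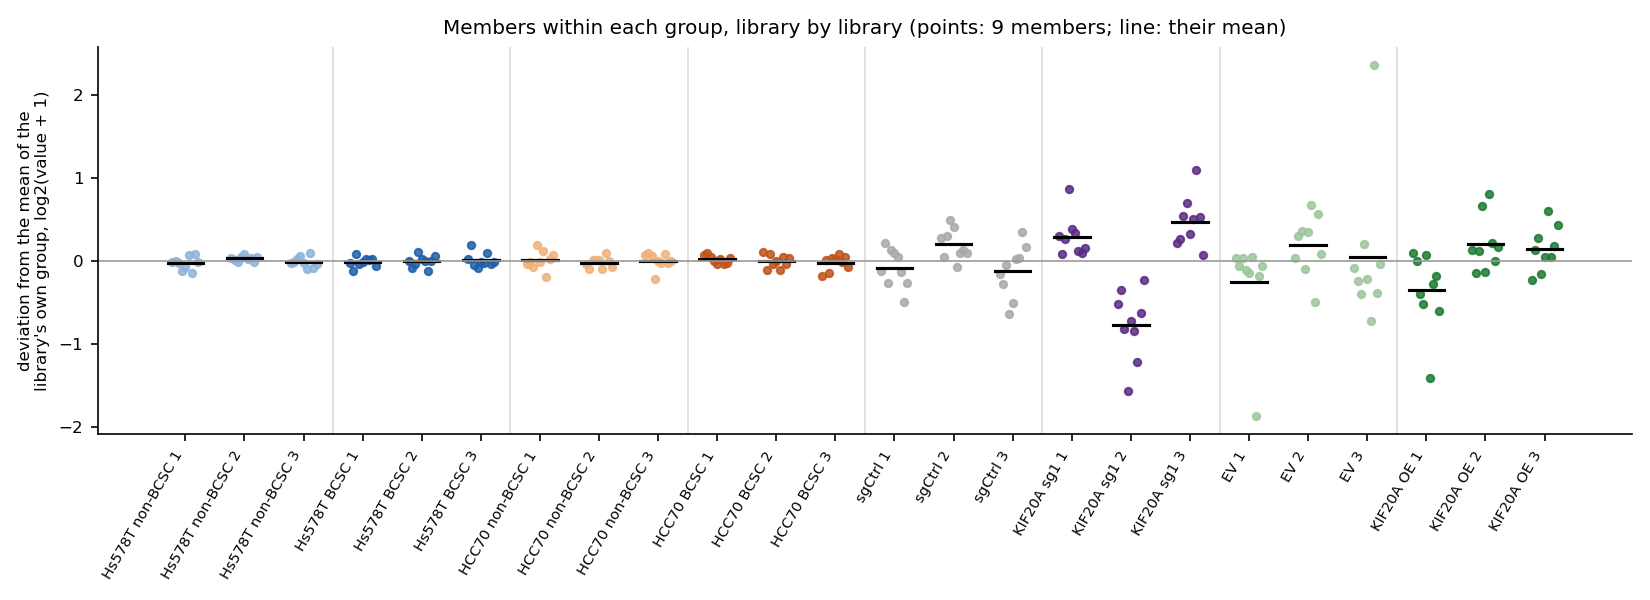
Deviation of 9 members (points) from the mean of the library's own group on log2(value + 1) (vertical axis) in the 24 libraries, with black lines for the mean over members. The means stay between -0.02 and 0.03 in the sorted cells, and KIF20A sg1 replicate 2 is lowest at -0.76.

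Deviations from the group mean of log2(value + 1) were averaged over members in each library, so that members going opposite ways cancel. In HCC70 non-BCSCs, for example, CHAC1 was at 0.19, 0.02 and -0.21 and PHGDH at -0.19, 0.10 and 0.09. The mean deviation of the 9 members analysed in every table was between -0.02 and 0.03 in the 12 sorted libraries. In the KIF20A sg1 group it was 0.29, -0.76 and 0.47, and in EV -0.25, 0.20 and 0.05. The EV means depend strongly on PHGDH, which alone was at -1.87, -0.50 and 2.36. In EV replicate 3, 2 of 9 members lay above the group mean. These PHGDH values also enter the correlations below. Over the 24 libraries, Pearson's r between a member and the mean of the others was highest for TRIB3 (0.82) and CHAC1 (0.80) and lowest for PHGDH (0.24). With KIF20A sg1 replicate 2 left out of the correlation these were 0.70, 0.63 and 0.00. Here and below, deviations of the other sg1 libraries were still taken from the group mean that included replicate 2. Values without that library therefore still carry its effect. The points share libraries and group means, so this is a description. Of 6390 other genes with a mean of at least 10 in every table, HMGA1 (r = 0.88, 0.79 without that library), MCFD2 (0.85 and 0.77), GNPDA1 (0.84 and 0.78), NSUN4 (0.83 and 0.70) and STEAP1 (0.83 and 0.79) deviated most like the members.

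The libraries labelled KIF20A OE differed from EV far beyond the construct, which has to be stated before the members. KIF20A itself was at 101, 143 and 124 CPM in EV, against 1348, 269 and 896 CPM. Of 15265 genes tested, 46.2% rose and 23.4% fell, with a median of 0.37. Scaling by the median of ratios brought that median to 0.03 and the split from 7055 higher and 3579 lower to 5129 and 5007, so that 0.37 is the level against which the differences below are to be read. All 8 mesenchymal markers of MDA-MB-231 fell, their sum going from 6607 to 7366 CPM in EV down to 476 to 899.8 CPM, and CD44, AXL and NT5E had means of 0.557, 0.771 and 0.275 CPM. All 6 markers of HEK293-type embryonic kidney cells, the line type in which the study packaged virus, rose, from a sum of 0 to 0.0476 CPM to one of 1729 to 2280.3 CPM. Of these, CDKN2A is not particular to such cells, with means of 194 and 163 TPM in HCC70 non-BCSCs and BCSCs, where the others were near 0 or not listed. The libraries labelled KIF20A OE therefore go against their cell line label, and the part of this shift in the differences below was not tested.

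Of the 9 members tested, 4 rose in the libraries labelled KIF20A OE, ATF4, SESN2, PHGDH and PSAT1, and 0 fell, against 46.2% and 23.4% of all genes. The median over the 9 members was -0.01, below the 0.37 of all genes. That order depended on the filter, since at a minimum mean of 10 the median was 1.38 over 7 members, against 0.29 of all genes. PHGDH was at 0.0952, 1.84 and 19.6 CPM in EV against 301, 426 and 379 CPM with the KIF20A OE label. EV libraries ranged from 2 to 333 reads, and the means differed 51.4-fold (6.52 on the log2 scale, SE 0.89, adjusted p = 2.7e-04). EV replicate 3 was far above the other EV libraries, and without it the difference was 7.70, against 5.58 without EV replicate 1. SESN2 was at 18.1, 25.9 and 17.2 CPM in EV against 126, 109 and 123 CPM with the KIF20A OE label. The groups were far apart, 5.85-fold on the means (2.51, SE 0.17, adjusted p = 5.4e-06).

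ATF4 was at 271, 271 and 249.6 CPM in EV against 738, 753 and 587 CPM with the KIF20A OE label. All 3 were above every EV library, by 2.63-fold (1.38, SE 0.13, adjusted p = 2.9e-05). PSAT1 was at 44, 74.3 and 38 CPM in EV and at 129, 147 and 167 CPM in the others, 2.83-fold higher (1.53, SE 0.24, adjusted p = 5.5e-04). These 4 genes passed in all 13 alternatives, with log2 differences of 1.02 to 1.5 for ATF4, 2.15 to 2.69 for SESN2, 5.37 to 7.70 for PHGDH and 1.15 to 1.82 for PSAT1.

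The other 5 members overlapped between the groups and did not pass. For this experiment the share of all genes that overlapped or lay apart was not computed, so these arrangements lack a background. DDIT3 was at 7.86, 10.3 and 6.76 CPM in EV against 7.76, 6.90 and 8.62 CPM with the KIF20A OE label (-0.07, SE 0.21, adjusted p = 0.76). TRIB3 had means of 43.3 and 42.5 CPM (-0.02, SE 0.24, adjusted p = 0.94) and PSPH of 28.4 and 29.4 CPM (-0.01, SE 0.25, adjusted p = 0.96), both below the median of all genes. CHAC1 differed by -0.39 (SE 0.31, adjusted p = 0.28), and it fell without KIF20A OE replicate 2 (-0.72, adjusted p = 0.027, in a range of 0.027 to 0.71). SLC7A11 was at 25.9, 40.6 and 14.8 CPM in EV and at 4.13, 22.8 and 19.6 CPM in the others (-0.94, SE 0.59, adjusted p = 0.19). ATF4 mRNA was thus higher in these libraries while DDIT3, TRIB3 and CHAC1 were not called.

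In the wider pathway 25 of 48 genes tested rose and 8 fell in the libraries labelled KIF20A OE, against 46.2% and 23.4% of all genes. CBS, which makes cystathionine from homocysteine and serine, was listed at 0 in all 3 EV libraries and at 78.5 to 88.1 CPM in the others (adjusted p = 7.0e-08). STC2 (6.07, SE 0.22, adjusted p = 2.0e-07), ATF3 (4.92, SE 0.50, adjusted p = 4.8e-05) and the mitochondrial folate enzyme ALDH1L2 (4.68, SE 0.23, adjusted p = 8.8e-07) rose most among the rest. All 4 one-carbon enzymes rose, and 6 of 12 aminoacyl-tRNA synthetases, a share near the 46.2% of all genes. The glutamine and alanine transporter SLC38A2 (-1.64, SE 0.12, adjusted p = 6.7e-06), the lipoprotein receptor VLDLR (-1.48, SE 0.30, adjusted p = 0.0026) and SLC6A9 (-1.41, SE 0.28, adjusted p = 0.002) fell, as did NQO1 among the NRF2 targets (-1.80, SE 0.28, adjusted p = 5.1e-04). Of the 16 chaperone genes 4 rose and 6 fell, and of the 8 NRF2 targets 2 rose and 3 fell. The median over the wider pathway was 0.47, against 0.37 for all genes.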

How the data were processed

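Poly-A RNA of the 24 libraries was sequenced as paired-end reads on stranded libraries. The submitters' processing notes name HISAT2 2.0.5 and featureCounts 1.5.0-p3 with GRCh38, and the study names DESeq2 for differential expression; the annotation is not given in the sources used here. For both sorted lines the deposited values are TPM, which the authors made from reads divided by length. The deposited table of the depletion experiment, named CPM by the authors, holds a signal of reads divided by 1 factor per library (column sums 977394 to 1028621) and was used without rescaling. For EV and KIF20A OE the authors deposited CPM.

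Groups were taken from the labels. The members and all lists were chosen with earlier results of these data known. Genes with a mean of at least 1 were tested, each comparison alone, by limma 3.58.1 (R 4.3.3, trend, two-sided) on log2(value + 1), a scale that understates changes of low genes, with Benjamini-Hochberg adjustment over all genes tested at 0.05; the 12 sorted libraries were also fitted together for the interaction. The named genes outside the members are, per comparison, up to 4 that rose and 4 that fell most with a mean of at least 10 in a group, or the 3 with the smallest p, and the 5 most like the members. CD68, CD14, PTPRC, CD3E, KRT8, KRT18, CAV1, CD44, AXL, NT5E and CDKN2A were named as marker genes after their values were seen. Values of MARS1, which shares exon bases with DDIT3, were likewise added after they were seen.

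In the depletion and overexpression experiments whole reads were recovered from the value steps for 100% of values (tolerance 0.05 reads). For the TPM of the sorted cells reads were inferred from ratios between libraries, and 100% of genes received a read number. On simulated data 97.9% of genes were recovered exactly from TPM, and the rest were not. The limma step was tested on simulated data. The alternatives were a pseudocount of 0.1, no filter, a minimum mean of 10, median of ratios, a replicate block, each library left out, and count tests on the recovered reads by edgeR 4.0.16 and by DESeq2 1.42.0, these tests being added for Hs578T and HCC70 after the data were seen. Locations, overlaps and windows come from GENCODE 44 and hg38, which may differ from the authors' annotation. Tables and figures were made with Python 3.11.15, pandas 2.3.3 and matplotlib 3.10.9.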

Additional observations from a re-analysis of the deposited data

Results flagged for a closer look

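The BCSC difference was unequal between Hs578T and HCC70 for 2 members by the test of the difference itself, the interaction of fraction and cell line fitted by limma over 13705 genes. For DDIT3 it was 0.66 larger in HCC70 on log2(TPM + 1) (SE 0.12, adjusted p = 0.0085, from -0.19 and 0.47), and for SESN2 it was 0.34 larger (SE 0.07, adjusted p = 0.014, from 0.15 and 0.49). In HCC70 all 3 BCSC libraries were above all 3 non-BCSC libraries for both genes. In Hs578T this held for SESN2 and not for DDIT3. DDIT3 shares 27.2% of its exon bases with MARS1 and 4.44% with MBD6 on the opposite strand and 8.03% with ENSG00000285133 on the same strand. MARS1 itself went from 176 to 227 TPM in HCC70 BCSCs (0.37, SE 0.07, adjusted p = 0.046). In Hs578T it went from 146 to 149.6 TPM (0.03, SE 0.06, adjusted p = 0.81). The part of the overlaps in the DDIT3 difference was not tested, and cell line and batch cannot be told apart.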

How the results depend on the processing

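The listed alternatives were run for each comparison, except that edgeR and DESeq2 were not run for the difference between the lines. A minimum mean of 10 left no value for DDIT3 and CHAC1 in both MDA-MB-231 experiments or for ASNS and PHGDH in the depletion experiment. Among member differences, 297 kept their direction and side of the threshold under other settings, 13 passed newly, 3 no longer passed and 4 changed sign, and with single libraries left out the numbers were 319, 6, 10 and 19. In Hs578T, edgeR called 1646 genes against 953. The members called were 1 with no filter, and 4 by edgeR and 4 by DESeq2, against 2, and the wider pathway gave 11 by edgeR and 13 by DESeq2 against 7. In HCC70, calls over all genes were 178 with no filter, 233 by median of ratios, 715 by edgeR and 1167 by DESeq2, against 374. Members called were 5 by edgeR and 7 by DESeq2 against 3, and the wider pathway gave 4 with no filter, 14 at a minimum mean of 10, 3 by median of ratios, 14 by edgeR and 25 by DESeq2 against 8. In the depletion experiment DESeq2 called 11 genes against 0. The PSPH difference changed sign in Hs578T by median of ratios (0.02), edgeR (0.02) and DESeq2 (0.02), and between the lines by median of ratios (-0.02). The cause was not tested.

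Replicate numbers are shared between groups, but same-numbered libraries did not deviate together (r from -0.161 to 0.185), so they share only a number. A replicate block gave 1 member called in Hs578T and 4 genes of the wider pathway, 128 genes in HCC70 with 0 of the wider pathway, and 408 genes and 4 of the wider pathway for the difference between the lines, against 1110 and 9.

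When single libraries were left out, calls ran from 343 to 865 genes, 0 to 3 members and 2 to 7 of the wider pathway in Hs578T, from 32 to 270, 1 to 4 and 0 to 6 in HCC70, and from 440 to 1414, 2 to 3 and 5 to 13 for the difference between the lines. In the depletion experiment 0 to 144 genes were called, 144 of them without sgCtrl replicate 3 and 5 without KIF20A sg1 replicate 2.

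Signs that changed with a library left out were those of PHGDH (-0.03 to 0.09) and PSPH (-0.04 to 0.02) in Hs578T, PSPH in HCC70 (-0.00 to 0.07), and PSAT1 between the lines (-0.09 to 0.00). In the depletion experiment they were those of DDIT3 (-0.28 to 0.03), ASNS (-0.21 to 0.26), TRIB3 (-0.49 to 0.19), CHAC1 (-1.07 to 0.15), SESN2 (-0.41 to 0.20) and PHGDH (-1.07 to 0.09), and in the overexpression experiment DDIT3 (-0.20 to 0.07), TRIB3 (-0.22 to 0.17) and PSPH (-0.23 to 0.28). None of these passed the test. Read numbers were low for ASNS in the depletion experiment (38 to 99 reads) and for PHGDH in EV replicate 1 (2 reads).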
